A study of Mus musculus with 38 samples.

Results

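The mouse miRNAs listed as mmu-mir-10a, mmu-mir-10b, mmu-mir-99a, mmu-mir-99b, mmu-mir-100, mmu-mir-125a, mmu-mir-125b-1 and mmu-mir-125b-2 (below without mmu) were described in sperm of 38 male C57BL6/J mice. They were taken by name from the miRNA rows listed among the reads that match the genome, where all 8 were found among 689 miRNA rows and each had reads in all 38 mice. The mice formed 4 diet groups, with 10 CTCT, 9 CTPR, 9 PRCT and 10 PRPR mice. In each name the first pair of letters is what the dam ate from mating until her pups were weaned at 21 days, and the second pair is what the son then ate until he was killed at 11 to 13 weeks of age. The control diet (CT) held 20% protein and the protein-restricted diet (PR) 8%, so that CTCT is the control group, CTPR was restricted after weaning only, PRCT before weaning only and PRPR throughout. By the paper's list of components, the diets also differed in fat, fibre, sugar, vitamins, folic acid and choline. Restriction below therefore means the PR diet as a whole, and protein cannot be told apart from these other components. Sperm swam out of the minced epididymis, and a small RNA library was made for each mouse. Sons of 21 litters were used, and 17 litters gave 2 mice, 1 to each post-weaning diet. GEO's labels put mouse 47I1 in the CTCT and mouse 47I2 in the CTPR group, whereas the study's own list of mice has them the other way round. The labels were followed.

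A miRNA is cut from a hairpin precursor and binds messenger RNAs chiefly through bases 2 to 8 of its mature strand, the seed. The mir-10, mir-99/100 and mir-125 miRNAs are old relatives that share a sequence plan. The mir-10 genes lie within the clusters of the Hox genes, which pattern the body axis, and the mir-99/100 and mir-125 genes lie next to let-7 genes in clusters that arose as copies of each other. miR-99a and miR-100 are known to act on the growth regulator mTOR, and mir-125 is the counterpart of the worm miRNA lin-4. Sperm carry miRNAs left from their formation in the testis and others gained during transit through the epididymis, an epithelial duct wrapped in smooth muscle.

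The mature 5p sequences are shown because the seeds define 3 groups of members and because near-identical members limit what the counts can tell apart. RefSeq (GRCm38.p6) held an entry for all 8 members, with 7 distinct 5p sequences. The seed is in capitals.
miR-10a-5p: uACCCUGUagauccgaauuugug
miR-10b-5p: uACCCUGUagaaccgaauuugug
miR-99a-5p: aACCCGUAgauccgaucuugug
miR-100-5p: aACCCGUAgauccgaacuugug
miR-99b-5p: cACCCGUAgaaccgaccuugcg
miR-125a-5p: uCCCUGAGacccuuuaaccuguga
miR-125b-5p: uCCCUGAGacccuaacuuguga

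With positions counted from 1 at the 5′ end, miR-10a-5p and miR-10b-5p differ only by U12A, and miR-99a-5p and miR-100-5p only by U16A. miR-99a-5p and miR-99b-5p differ by A1C, U11A, U16C and U21C. miR-125a-5p and miR-125b-5p share their first 13 bases. mir-125b-1 and mir-125b-2 give the same 5p strand, so a read of it cannot be assigned to either copy. The rows are named by hairpin and do not separate the 5p from the 3p strand. How many mismatches were allowed, and how a read that matches several miRNAs was counted, is not given in the sources used here.

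The 8 genes lie at 5 places in the mouse genome, all on the + strand (GRCm38.p6, position of the 5p strand). mir-10a (chr11:96317186-96317208) lies outside other genes of the GENCODE vM21 annotation, 1019 bases before Hoxb4. mir-10b (chr2:74726074-74726096) lies within the bounds of Hoxd3 and Hoxd4 and in no exon of either. mir-99a (chr16:77598940-77598961) and mir-125b-2 (chr16:77646279-77646300) lie in introns of the non-coding host gene Mir99ahg, 47.3 kb apart, with let-7c-1 674 bases from mir-99a. mir-100 (chr9:41531437-41531458) and mir-125b-1 (chr9:41581940-41581961) are 50.4 kb apart within the long non-coding gene Gm49317, with let-7a-2 between them. An exon of Gm48742 covers mir-100 on the opposite strand, and an exon of Gm28119 covers mir-125b-1 on the same strand. mir-99b (chr17:17830194-17830215) and mir-125a (chr17:17830817-17830840) are 563 bases apart within Spaca6, a gene for a sperm membrane protein needed for fusion with the egg, with let-7e between them. mir-99b is intronic there, and mir-125a overlaps an exon of 1 Spaca6 transcript.

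Per mouse, 4465281 to 7612603 reads matched the genome, and 7805 to 378918 of these were miRNA reads. miRNA reads therefore made up 0.158% to 5.55% of the genome-matching reads, a 35.0-fold range. The medians were 1.43% in the CTCT, 2.43% in the CTPR, 1.44% in the PRCT and 1.24% in the PRPR group. The CTPR group was 0.75 higher than the CTCT group on the log2 scale, which was not distinguishable from the spread between mice (two-sided exact permutation test, P = 0.273, adjusted over 4 comparisons P = 0.9996). This test moved mice freely between the groups, without regard to litter. In the 8 litters with a mouse in each of these groups, the CTPR brother was higher in 6, with a mean log2 ratio of 0.37 ± 0.83 (SD). Because miRNA content varied so widely, each member is given both as reads per 1000000 genome-matching reads (RPM) and as a share of miRNA reads, and a direction can differ between the scales. The lowest counts behind a value were 8 reads for mir-125a, 12 for mir-99b and 14 for mir-125b-1, against 316 for mir-10a, 205 for mir-99a and 199 for mir-10b.

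Together the 8 members made up 10.4% ± 1.5 (SD, n = 38) of the miRNA reads, and 3 of them carried nearly all of this. mir-10a was the miRNA row with the 4th highest mean share (3.79% ± 0.807), mir-99a the 7th (3.10% ± 0.360) and mir-10b the 8th (2.78% ± 0.512), behind rows such as mir-148a with 20.5% ± 6.31 and mir-143 with 8.59% ± 1.96. mir-100 followed with 0.261% ± 0.0469, mir-125b-2 with 0.152% ± 0.0635, mir-125b-1 with 0.142% ± 0.0499, mir-99b with 0.139% ± 0.0382 and mir-125a with 0.0605% ± 0.0385.

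Some neighbours in this order were close in mean share. mir-10a had more reads than mir-99a in 32 of 38 mice, and mir-99a more than mir-10b in 30, so these orders held within most mice. Both differences in mean share were smaller than the larger SD between mice, which does not measure the spread of a difference within a mouse. mir-10b exceeded mir-100 in 38 of 38 mice, by a geometric mean factor of 10.7. mir-125b-2, mir-125b-1 and mir-99b could not be ranked, as mir-125b-1 was above mir-99b in 19 mice and below it in 19. mir-125a was below mir-99b in 37 of 38 mice. Levels are compared here without correction for how well each sequence is captured in a library.

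Between mice, the RPM of the members spread far more than their shares. mir-10a ranged 25.5-fold in RPM and 2.68-fold in share, mir-99a 44.8-fold and 1.70-fold, and mir-100 59.0-fold and 2.80-fold. mir-125a was the exception, with 12-fold in RPM and 21.9-fold in share. Both ends of its range in share rest on few reads, with 25 in mouse 07C3 (highest) and 13 in mouse 49K3 (lowest).

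In RPM, the CTCT and CTPR groups asked what post-weaning restriction did after a control-fed dam. mir-10a was at 57.9 RPM in the lowest, 559 in the median and 1169 in the highest CTCT mouse, and at 68.7, 691 and 1475 in CTPR. In PRCT it was at 166, 584 and 969, and in PRPR at 117, 466 and 925. The 4 ranges overlapped.

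mir-10b was at 39.5, 403 and 795 RPM in CTCT, 43.3, 487 and 1148 in CTPR, 134, 359 and 808 in PRCT and 90.2, 335 and 749 in PRPR, again as lowest, median and highest mouse. mir-99a was at 43.8, 445 and 930.2 RPM in CTCT, 44.6, 783 and 1965 in CTPR, 124, 494 and 893 in PRCT and 107, 348 and 971 in PRPR. The highest CTPR values came from mouse 57P1, whose library had the highest miRNA content (5.55%), and the lowest from mouse 02A8 (0.170%). Group means of the other members ran from 18.7 to 27.2 RPM for mir-99b, 34.7 to 60.7 for mir-100, 7.08 to 10.9 for mir-125a, 17.5 to 35.0 for mir-125b-1 and 17.1 to 34.7 for mir-125b-2, with CTPR highest for each.

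**Figure D1:**
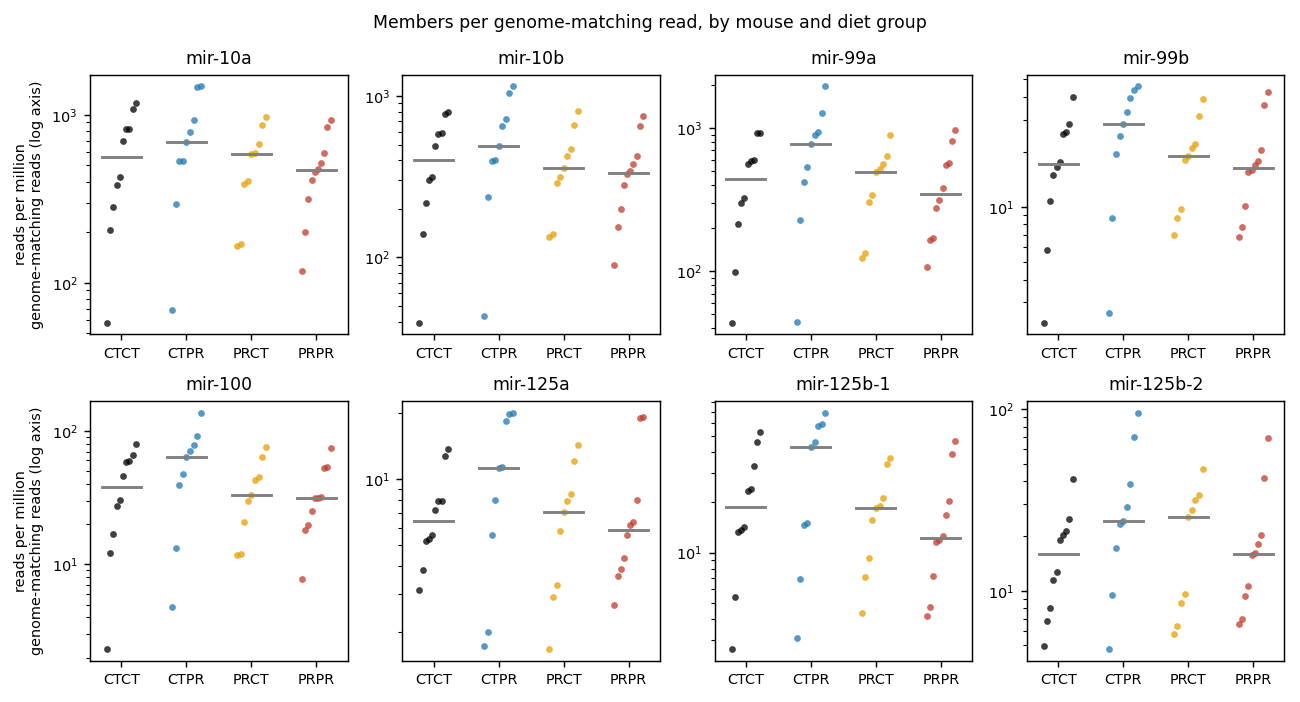
Each point is 1 mouse (10 CTCT, 9 CTPR, 9 PRCT, 10 PRPR), sorted within its group, and the grey line is the group median; the y axis is reads per 1000000 genome-matching reads on a log scale, with its own range for each member. For mir-10a the lowest and highest CTCT mice are at 57.9 and 1169 RPM, and the 4 groups overlap for all 8 members.

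No member passed an adjusted P of 0.05 in any of the 5 comparisons in RPM (edgeR quasi-likelihood test over 7002 rows of all small RNA classes). Of all rows, 0.0714% passed for CTPR against CTCT, 0% for PRCT against CTCT, 0.0143% for PRPR against CTCT, 0.0143% for PRPR against PRCT and 0.871% for the difference between the 2 post-weaning effects. At an unadjusted P under 0.05, 0 of 8 members were found in each comparison, beside 8.18%, 5.9%, 5.67%, 5.74% and 6.18% of all rows in the same order. DESeq2 gave 0 members at an adjusted P under 0.05 in each comparison, beside 1.13%, 1.16%, 0.97%, 1.1% and 1.48% of rows. At an unadjusted P under 0.05 it gave 1 member for CTPR against CTCT and 0 in the others, beside 8.08%, 3.67%, 3.33%, 2.88% and 4.18% of rows.

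For CTPR against CTCT all 8 log2 differences in RPM were above 0, from 0.34 for mir-10a to 1.02 for mir-125b-2 with a median of 0.60, and with TMM scaling those of mir-10a, mir-10b, mir-99b, mir-100, mir-125a and mir-125b-1 turned negative. With litter as a block, mir-10a was at -0.030, mir-10b at 0.037, mir-99a at 0.33 and mir-125b-2 at 0.59. The median over all 7002 rows was 0.67, which TMM scaling brought to 0.15 and the block to 0.45, and of the 200 miRNA rows 198 were above 0 with a median of 0.79. The median of the members was thus below both of these medians. Only mir-99a and mir-125b-2 were above the all-row median, and only mir-125b-2 was above that of the miRNA rows. The ranks of the members among the rows were not computed. For mir-10a the difference was 0.34 ± 0.46 (SE), a 1.26-fold change with a 95% interval of 0.666 to 2.40 (adjusted P = 0.858). For mir-99a it was 0.78 ± 0.51, 1.72-fold with an interval of 0.839 to 3.53 (adjusted P = 0.756), and for mir-125b-2 1.02 ± 0.54, 2.03-fold with an interval of 0.948 to 4.34 (adjusted P = 0.687). The split of reads between mir-125b-1 and mir-125b-2 is uncertain, so this value cannot be read as that of 1 copy. Summed, these rows had a mean of 40.0 RPM ± 26.2 (SD) in CTCT and 69.7 ± 51.6 in CTPR. In the other 3 two-group comparisons the members' log2 differences lay between -0.39 and 0.35, with standard errors of 0.45 to 0.57. Since all 3 comparisons with CTCT use the same CTCT mice, their values are not independent of each other. In simulated counts over the 7002 rows, 0% of changes of 1 on the log2 scale were recovered, so that a change of this size in RPM could be missed. The changed rows were drawn at random from all rows and were not chosen as the members, so the rate is not specific to the members.

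As a share of miRNA reads, 7 of 9 CTPR mice were below the CTCT median for mir-10a and 8 of 9 for mir-10b, whereas in RPM the CTPR medians were the higher ones. mir-10a made up 3.41% of miRNA reads in the lowest, 4.02% in the median and 7.01% in the highest CTCT mouse, and 2.61%, 2.94% and 4.14% in CTPR. In PRCT it made up 3.49%, 3.86% and 4.64%, and in PRPR 2.65%, 3.53% and 4.78%. Of the 9 CTPR mice, 6 were below every CTCT mouse, while the other 3 were within the CTCT range. Of the 10 PRPR mice, 5 were below every CTCT mouse and 7 below the CTCT median.

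mir-10b made up 2.49%, 2.97% and 4.76% in CTCT, 1.97%, 2.22% and 3.34% in CTPR, 2.49%, 2.97% and 3.31% in PRCT and 1.98%, 2.64% and 3.07% in PRPR. Here 5 of the 9 CTPR and 3 of the 10 PRPR mice were below every CTCT mouse. mir-99a, with nearly the same level as mir-10b, made up 2.63%, 3.09% and 3.96% in CTCT, 2.33%, 3.21% and 3.54% in CTPR, 2.75%, 3.35% and 3.54% in PRCT and 2.53%, 3.09% and 3.74% in PRPR, and its groups overlapped. The highest CTCT value of both mir-10 members came from mouse 02A6, whose library held only 13142 miRNA reads.

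**Figure D2:**
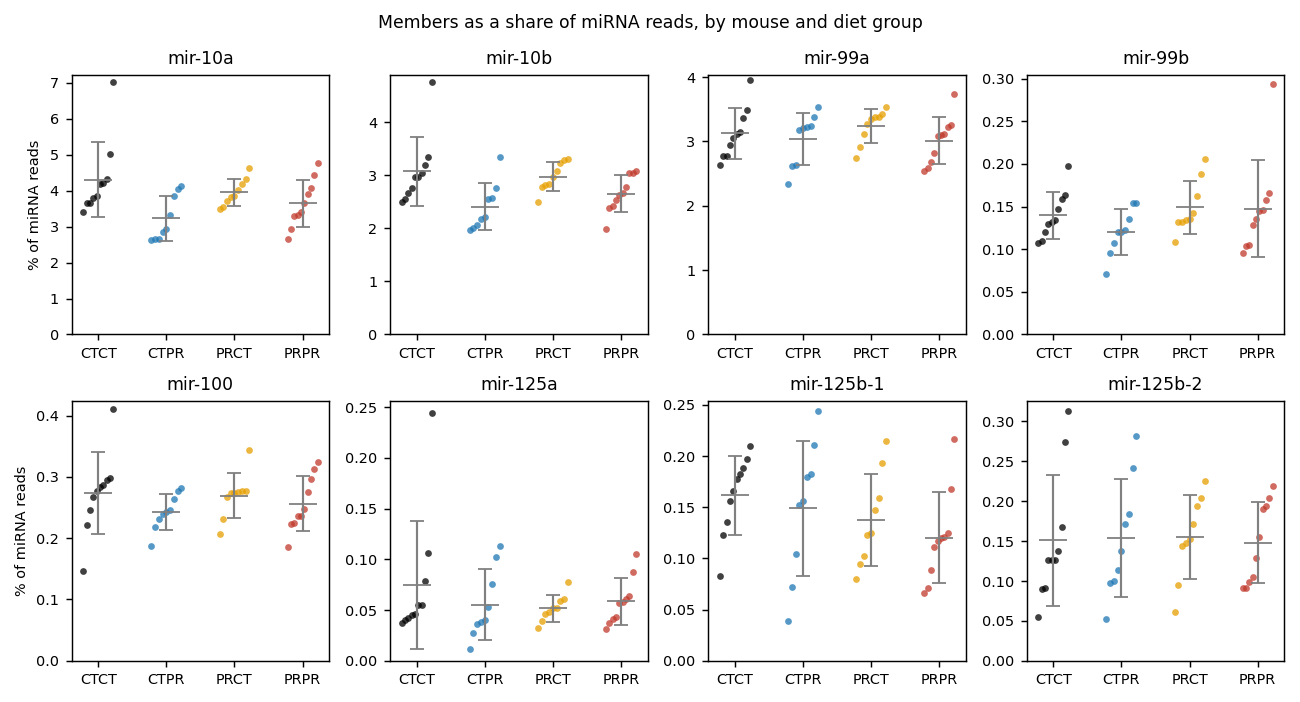
Each point is 1 mouse, sorted within its group, and the grey bars are the group mean ± SD; the y axis is the percentage of miRNA reads and starts at 0. Most CTPR points of mir-10a and mir-10b lie below the CTCT points, with mouse 02A6 (7.01% and 4.76%) at the top of CTCT, while the groups overlap for mir-99a.

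These differences did not pass the correction. No member had an adjusted P under 0.05 in any comparison of shares (edgeR over 200 miRNA rows), and neither did any other miRNA row, so that 0% were called in each. At an unadjusted P under 0.05, 2 members were found for CTPR against CTCT, beside 5% of the 200 rows, and DESeq2 gave the same number beside 7.5%. No member was found by edgeR in the other comparisons, beside 3.5% of rows for PRCT against CTCT, 2.5% for PRPR against CTCT, 0.5% for PRPR against PRCT and 3% for the difference between the post-weaning effects. For PRPR against CTCT, DESeq2 gave 3 members at an unadjusted P under 0.05, beside 5% of rows, and 0 after adjustment. At the same unadjusted level edgeR gave 1 with TMM scaling, 2 when mice 07C3, 35F2, 31A3 and 08G5 were left out and 1 when litter 47I was. For these edgeR settings the share of all rows at that level was not tabulated, so the counts cannot be set against it. In the remaining comparisons DESeq2 gave 0 members, beside 4%, 4% and 4.5% of rows.

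For CTPR against CTCT, mir-10a differed by -0.42 ± 0.13 (SE) on the log2 scale, a 0.750-fold share with a 95% interval of 0.626 to 0.898 (unadjusted P = 0.00256, adjusted P = 0.504). mir-10b differed by -0.35 ± 0.12, 0.784-fold with an interval of 0.664 to 0.925 (unadjusted P = 0.00504, adjusted P = 0.504). In RPM both were above 0 in the same comparison, but with TMM scaling they were at -0.28 and -0.20, with DESeq2 size factors at -0.25 and -0.16, and with the litter block at -0.030 and 0.037. Without mouse 02A6 the values were -0.31 for mir-10a (unadjusted P = 0.0113) and -0.26 for mir-10b (unadjusted P = 0.0203). With litter as a block they were -0.42 and -0.35.

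mir-99a differed by -0.04 ± 0.10 in share, 0.973-fold with an interval of 0.846 to 1.12. The share of mir-100 was 0.886-fold (0.716 to 1.10) and that of mir-99b 0.856-fold (0.658 to 1.11). Among the mir-125 rows, mir-125a was 0.768-fold (0.476 to 1.24), mir-125b-1 0.916-fold (0.637 to 1.32) and mir-125b-2 1.03-fold (0.682 to 1.55). The median log2 difference of the 8 members was -0.20, beside 0.06 over all 200 rows.

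PRPR against CTCT compares restriction throughout with none, and uses the same CTCT mice. mir-10a was at -0.24 ± 0.13 in share (95% interval -0.49 to 0.013, adjusted P = 0.998) and mir-10b at -0.21 ± 0.11 (-0.45 to 0.019, adjusted P = 0.998). PRCT against CTCT compares restriction before weaning only, and gave -0.12 ± 0.13 for mir-10a and -0.05 ± 0.12 for mir-10b. PRPR against PRCT gave -0.12 ± 0.13 and -0.17 ± 0.12. The remaining members had log2 differences in share between -0.42 and 0.16 in these 3 comparisons. The effect of post-weaning restriction on the share of mir-10a after CT dams minus that after PR dams was -0.30 ± 0.18 (95% interval -0.67 to 0.068, adjusted P = 0.980), so that the effects were not shown to differ.

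**Figure D3:**
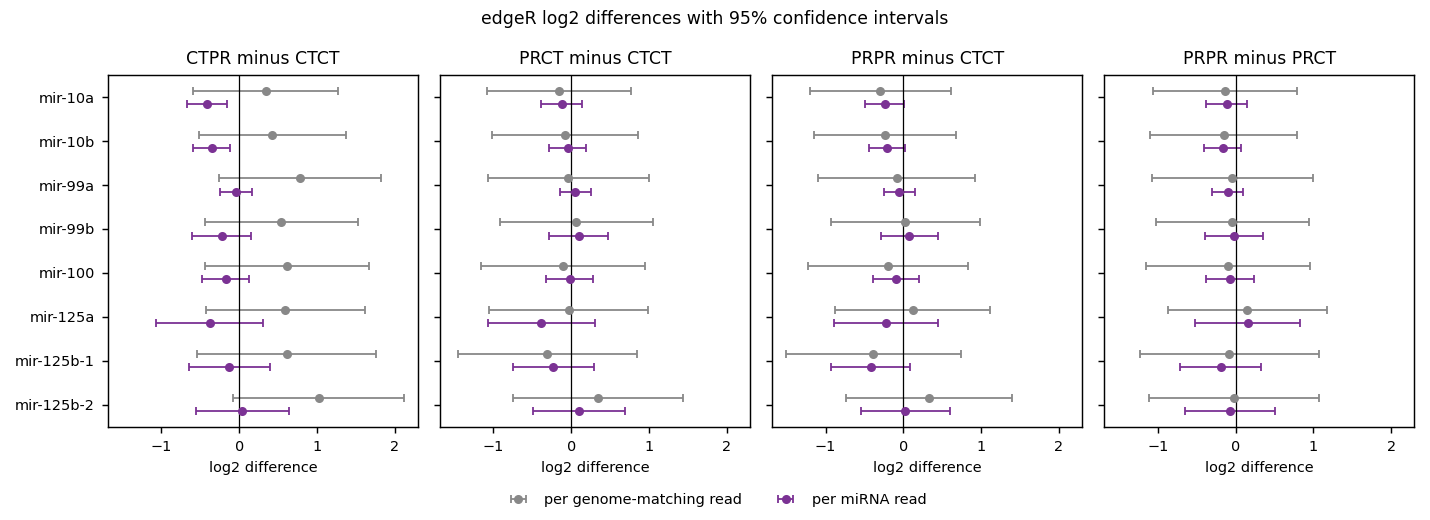
Points are log2 differences of the 8 members from edgeR and bars their 95% confidence intervals, in grey per genome-matching read and in purple per miRNA read, with 1 panel for each pair of groups. For CTPR minus CTCT the purple intervals of mir-10a (-0.68 to -0.15) and mir-10b (-0.59 to -0.11) do not reach 0, the other intervals shown all cross it, and no difference passed the adjusted threshold.

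Littermates allow the post-weaning diets to be compared within a dam. In the 8 litters of CT dams, the share of mir-10a was lower in the CTPR than in the CTCT brother in 7, with a mean log2 ratio of -0.42 ± 0.34 (SD). It went from 7.01% to 4.05% in litter 02A, from 5.03% to 2.94% in 49K, from 4.32% to 2.66% in 57P and from 4.20% to 2.85% in 53M. It went from 3.41% to 2.66% in 35F, from 3.86% to 3.33% in 45L and from 4.17% to 4.14% in 09H. The litter with the opposite order was 47I (3.65% to 3.85%), whose labels conflict with the study's list. With its 2 mice exchanged the CTPR brother was lower in 8 of 8 litters, and without the litter in 7 of 7. All these counts include litter 09H as lower, where the brothers were nearly level (log2 ratio -0.012).

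mir-10b was lower in the CTPR brother in 6 of 8 litters (mean log2 ratio -0.35 ± 0.35) and mir-99a in 2 of 8 (-0.05 ± 0.34). In RPM the CTPR brother was higher in 5 of 8 litters for mir-10a and mir-10b and in 6 of 8 for mir-99a, as it was in 6 of 8 for miRNA reads as a whole. In the 9 litters of PR dams, the PRPR brother had the lower share of mir-10a in 7 (mean log2 ratio -0.12 ± 0.29), of mir-10b in 6 (-0.16 ± 0.25) and of mir-99a in 6 (-0.12 ± 0.23). Except for mir-10a in litters of CT dams, these spreads in share were at least as wide as the means. They describe single litters and are not errors of the mean ratio. For CTPR against CTCT, the edgeR fit with litter as a block gave -0.42 for mir-10a (adjusted P = 0.632) and -0.35 for mir-10b (adjusted P = 0.917) in share.

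**Figure D4:**
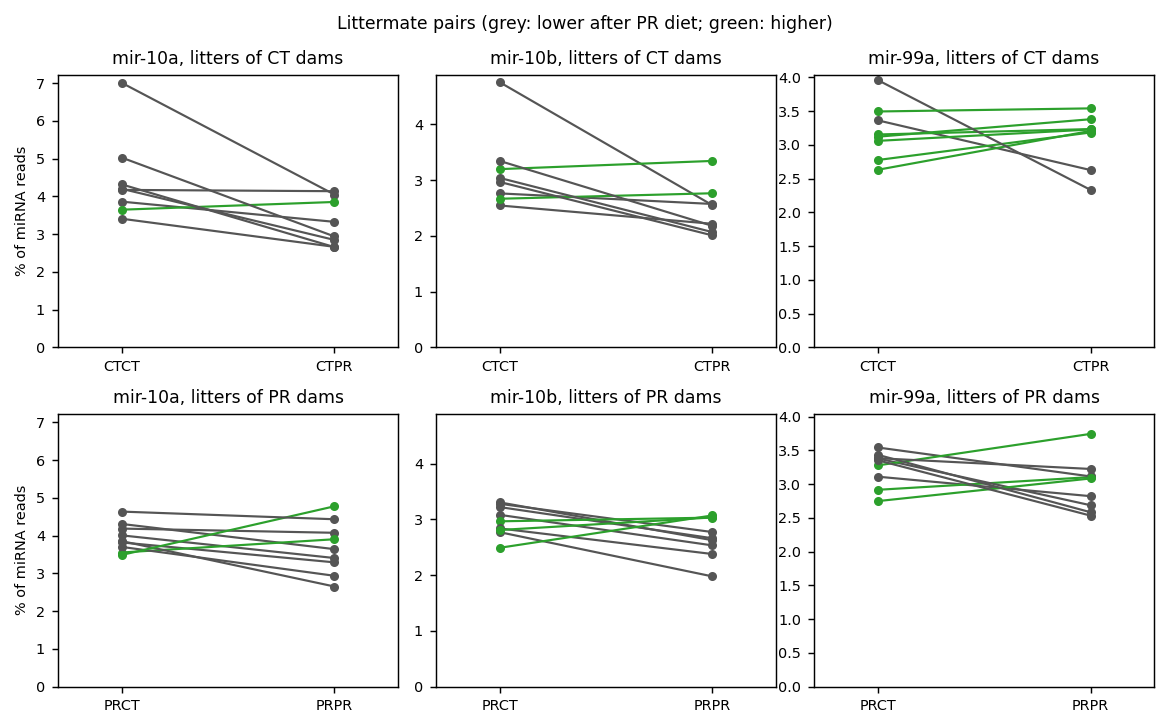
Each line joins 2 littermates, from the brother on the control diet to the brother on the restricted diet after weaning, with the percentage of miRNA reads on the y axis. Lines that fall are grey and lines that rise are green; for mir-10a, 7 of 8 lines fall in litters of CT dams and 7 of 9 in litters of PR dams, while for mir-99a 2 of 8 and 6 of 9 fall.

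The share of several members moved with the miRNA content of the library, whose share scale uses the same miRNA total. The permutation tests below moved all 38 mice freely, with neither litter nor diet group held fixed, so their P values may be too small. Over the 38 mice, log2 share and log2 miRNA content had r = -0.44 for mir-10a (permutation test, P = 0.00562, adjusted over 8 members P = 0.0150, rho = -0.43 with P = 0.00730, adjusted P = 0.0195). For mir-10b r was -0.40 (P = 0.0143, adjusted P = 0.0238, rho = -0.39 with P = 0.0169, adjusted P = 0.0339, permutation test). For mir-99a r was 0.30 (P = 0.0682, adjusted P = 0.0909, rho = 0.28 with P = 0.0873, adjusted P = 0.122, permutation test).

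By r over all 38 mice, the strongest relations were those of mir-99b with r = -0.55 (P = 0.00021, adjusted P = 0.00084, rho = -0.44 with P = 0.00668, adjusted P = 0.0195, permutation test) and mir-125a with r = -0.58 (P = 0.00013, adjusted P = 0.00084, rho = -0.44 with P = 0.00619, adjusted P = 0.0195, permutation test). By rho, both were close to mir-10a (-0.43). Without the 2 mice farthest from the median content (02A8 and 07C3), r was -0.51 for mir-10a, -0.57 for mir-10b, 0.18 for mir-99a, -0.61 for mir-99b and -0.41 for mir-125a. The relation of mir-125a was then weaker than those of mir-10a and mir-10b. Within the groups, r ran from -0.63 to -0.26 for mir-10a, from -0.59 to -0.24 for mir-10b and from -0.65 to -0.47 for mir-99b, so that its sign was the same in all 4. For mir-125a it ran from -0.92 in CTCT to -0.04 in PRCT.

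mir-125b-2 gave r = -0.39 (P = 0.0149, adjusted P = 0.0238, rho = -0.28 with P = 0.0916, adjusted P = 0.122, permutation test), which was -0.20 without those 2 mice, so that the relation rests on them. mir-100 had r = 0.02 (P = 0.890, adjusted P = 0.890, rho = -0.07 with P = 0.669, adjusted P = 0.765, permutation test) and mir-125b-1 r = -0.12 (P = 0.481, adjusted P = 0.550, rho = -0.0049 with P = 0.976, adjusted P = 0.976, permutation test). Since CTPR libraries had the higher median content, the group comparison was repeated with log2 miRNA content as a covariate, and mir-10a was then at -0.35 (unadjusted P = 0.00534) and mir-10b at -0.30 (unadjusted P = 0.0108) for CTPR against CTCT, both with an adjusted P of 0.591. The covariate is built from the same miRNA total as the share and was measured after the diets, so this fit cannot separate content from diet. Among the 28 mice with at least 50000 miRNA reads, 7 in each group, mir-10a was at -0.44 and mir-10b at -0.36 (edgeR, adjusted P = 0.244 and 0.255).

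**Figure D5:**
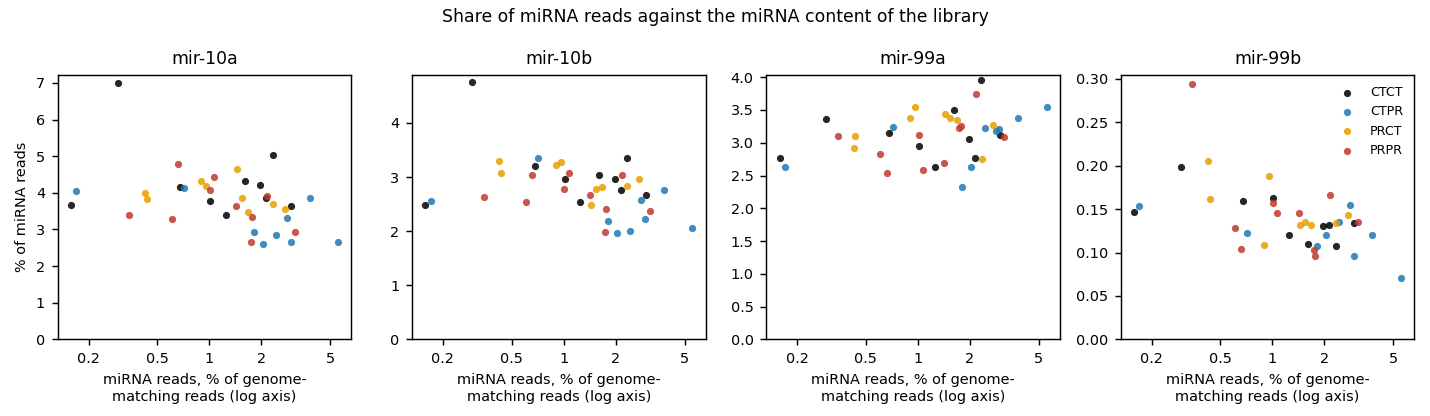
Each point is 1 mouse, coloured by diet group, with miRNA reads as a percentage of genome-matching reads on the x axis (log scale) and the member's percentage of miRNA reads on the y axis. The shares of mir-10a, mir-10b and mir-99b are lower where miRNA content is higher (r = -0.44, -0.40 and -0.55), and that of mir-99a is not (r = 0.30).

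Within a mouse, the 2 mir-10 members kept the most even ratio. mir-10a had 1.36 ± 0.128 (SD, n = 38) times the reads of mir-10b, from 1.2 to 1.86, and group means lay between 1.34 and 1.40. Over the mice their shares had r = 0.90, the highest for either member among 199 other miRNA rows. The 2 sequences differ by 1 base, and whether reads of one were counted under the other was not tested. The next most alike row was let-7e for both, with r = 0.71 for mir-10a and 0.62 for mir-10b. All such values share the miRNA total as denominator and describe these 38 mice.

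mir-99a and mir-100, which differ by U16A, were in a ratio of 12.2 ± 2.50, from 8.19 to 18.9, and their shares had r = 0.21. The rows most like mir-99a were mir-145a (r = 0.58), a smooth muscle miRNA, and mir-196b (r = 0.54), which lies in a Hox cluster. Those most like mir-100 were mir-148b (0.53) and mir-345 (0.52), and those most like mir-99b were mir-30d (0.70) and mir-25 (0.68). The ratio of mir-99a to mir-10a was 0.744 ± 0.101 in CTCT, 0.971 ± 0.222 in CTPR, 0.824 ± 0.0840 in PRCT and 0.858 ± 0.210 in PRPR.

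Of the mir-125b reads, 48.7% ± 11.9 were listed under mir-125b-1, from 31.2% in mouse 14A4 to 77.3% in mouse 35F2. Both copies give the same 5p strand, so this split is uncertain and the 2 rows cannot be read as 2 levels. Summed, they made up 0.313% ± 0.0942 of miRNA reads in CTCT, 0.302% ± 0.120 in CTPR, 0.293% ± 0.0585 in PRCT and 0.268% ± 0.0804 in PRPR. mir-125a was most like let-7a-2 and mir-125b-2 (both r = 0.72), mir-125b-1 most like mir-125a (0.60) and mir-200c (0.58), and mir-125b-2 most like mir-125a (0.72) and mir-375 (0.63).

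Within the clusters, likeness varied. mir-125a and let-7e, 384 bases apart, had r = 0.63, the 5th highest for mir-125a. mir-99b and mir-125a, 563 bases apart, had r = 0.54, the 14th highest for mir-99b. Their ratio ran from 0.600 in mouse 07C3 (15 and 25 reads) to 9.62 in mouse 49K3 (125 and 13 reads). mir-99b and let-7e, 112 bases apart, had r = 0.46. mir-99a had r = 0.13 with mir-125b-2 and 0.15 with let-7c-1, and mir-100 had r = 0.09 with mir-125b-1 and -0.04 with let-7a-2. let-7 rows share mature strands between copies, so the split of their reads is uncertain as well.

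Of the 3 let-7 neighbours, 0 passed the adjusted threshold in any comparison of shares. let-7c-1 made up 1.03% ± 0.989 of miRNA reads, let-7a-2 0.536% ± 0.312 and let-7e 0.0779% ± 0.0323. let-7e was at -0.57 ± 0.24 for CTPR against CTCT (unadjusted P = 0.0218, adjusted P = 0.727) and was the only neighbour with an unadjusted P under 0.05 in the 5 comparisons. The Hox cluster miRNAs mir-196b (0.283% ± 0.0842), mir-196a-2 (0.0396% ± 0.0218) and mir-196a-1 (0.0337% ± 0.0169) were far below mir-10a and mir-10b, and 0 of 3 had an unadjusted P under 0.05.

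The libraries held miRNAs known from germ cells and miRNAs known from other cell types. The paper reports high sperm purity, judged by methylation at imprinting control regions and by a representative RNA trace without ribosomal peaks. Germ cell miRNAs such as mir-34c (2.71% ± 0.914) and mir-881 (2.42% ± 1.04) summed to 2.94% to 13.6% of miRNA reads per mouse over 19 of 20 names with a row. Epithelial mir-200 miRNAs and relatives (5 of 5) summed to 1.77% to 4.83%, smooth and other muscle miRNAs (7 of 8) to 4.01% to 15.4%, most of it mir-143, and the endothelial mir-126a made up 0.218% to 1.08%. Blood miRNAs were low, with at most 0.189% for the red cell list and 0.397% for the white cell list, and liver mir-122 reached at most 0.105%. By group, the median of the muscle list was 9.89% in CTCT, 10.7% in CTPR, 10.5% in PRCT and 9.46% in PRPR, that of the germ cell list 6.15%, 5.92%, 6.99% and 6.92%, and that of the epithelial list 3.97%, 4.01%, 3.74% and 3.34%. No tested row of these lists passed the adjusted threshold in any comparison of shares (edgeR). At an unadjusted P under 0.05, 2 of 17 germ cell rows were above 0 for CTPR against CTCT, 1 for PRCT against CTCT and 2 for PRPR against CTCT. Beside this, 5%, 3.5% and 2.5% of all 200 miRNA rows were at that level in the same order, counting both directions. Whether the miRNAs of these lists came from other cells or were carried by sperm was not tested. The part of other cells in the levels of the members was not tested either. More of a cell type and more miRNA per cell cannot be told apart in such libraries.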

How the data were processed

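The authors sequenced small RNA libraries of sperm from 38 mice and mapped the reads to mm10 and to piRNA, tRNA, miRNA and rRNA databases with the SPORTS pipeline. They deposited 1 table of raw read counts per mouse, with no normalisation or pooling. The miRBase version and aligner settings are not given in the sources used here. Groups came from GEO's labels and litters from the mouse names. The genome-matching reads in the files equalled those in the study's list in 38 of 38 mice. A second class of miRNA reads without listed members was not used.

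Counts were divided by genome-matching reads (RPM) or by miRNA reads. The miRNA rows held 96.9% to 99.9% of the miRNA reads. Rows with a mean of at least 10 reads (7002 of all classes, 200 miRNA) went into the quasi-likelihood test of edgeR 4.0.16 under R 4.3.3 (functions glmQLFit and glmQLFTest with robust settings, all groups in 1 fit, Benjamini-Hochberg adjustment), with genome-matching reads, as in the study's methods, or miRNA reads as library size. Standard errors and 95% intervals follow from the test statistic. DESeq2 1.42.0 was an alternative. edgeR's newer method (legacy=FALSE) was run before its default here (legacy=TRUE), which was kept, after both had been seen, because it is the default of the planned test. Neither called a member. On simulated counts of 200 miRNA rows with 40 changed, the test recovered 57.5% at a log2 fold change of 1 and 97.5% at 2 (0% and 2.5% of calls false). Over 7002 rows with 200 changed it recovered 0% and 3% (25% of calls false at 2), so calls over all rows are weak evidence. No log2 change below 1 was simulated, so these rates do not cover the share differences of mir-10a (-0.42) and mir-10b (-0.35). The rates also depend on how many rows were changed.

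Littermates deviated together in RPM (r over 17 pairs from 0.43 to 0.80 for the members) and unevenly in share (-0.40 to 0.65). They share a dam, so litter was a block in an alternative. Within groups, pairs of mice differed by more than sampling noise (chi-square per degree of freedom of at least 11.2). Permutation tests used 100000 rearrangements or were exact. Likeness was Pearson's r of log2 shares plus 1 read per 1000000 miRNA reads. No molecular identifiers are described, so counting error is a lower limit. It is small for mir-10a, mir-10b and mir-99a and larger for the mir-125 rows. Named were all members, the 2 most alike rows of each and up to 3 rows of each list. Members and lists were chosen with earlier results of these data known.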

Additional observations from a re-analysis of the deposited data

Results flagged for a closer look

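In 4 of 64 sets of mice (8 members, 4 groups, 2 scales) a single mouse stood apart from its group by Dixon's test, where chance flags about 1 in 20, or 3.2 sets. Mouse 02A6 had the highest CTCT share of mir-10a (7.01%, next 5.03%) and of mir-10b (4.76%, next 3.34%), in a library of 13142 miRNA reads. Its brother 02A8, on the restricted diet, had 4.05% and 2.55%. Mouse 14A5 had the highest PRPR share of mir-99b (0.294%, next 0.166%), from 56 reads. Mouse 07C3 had the highest CTCT share of mir-125a (0.244%, next 0.107%), from 25 reads in a library of 10228 miRNA reads. None of these mice stood apart in RPM for these members.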

How the results depend on the processing

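No member passed the adjusted threshold in any of the 5 comparisons on either scale under any setting run. For CTPR against CTCT, the share difference of mir-10a lay between -0.48 and -0.31 over 15 settings (unadjusted P from 0.00118 to 0.0287, adjusted P from 0.0929 to 0.712, edgeR or DESeq2) and that of mir-10b between -0.41 and -0.26 (unadjusted P from 0.00185 to 0.0632, adjusted P from 0.0929 to 0.917). Of the log2 differences recomputed, 55 changed sign and 1043 did not. None of the 55 had passed the threshold, and the cause was not tested. They are given below on the log2 scale, where "difference of effects" is the post-weaning effect after CT dams minus that after PR dams.

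With TMM scaling, RPM for CTPR against CTCT gave mir-10a -0.28, mir-10b -0.20, mir-99b -0.073, mir-100 -0.016, mir-125a -0.22 and mir-125b-1 -0.021. PRCT against CTCT gave mir-10b 0.047, mir-99a 0.080 and mir-100 0.054, PRPR against CTCT mir-125a -0.19, and the difference of effects mir-10a -0.093 and mir-125a -0.27. The share of mir-125b-2 was at -0.014 for PRPR against CTCT. With DESeq2 size factors in edgeR, RPM for CTPR against CTCT gave mir-10a -0.25, mir-10b -0.16, mir-99b -0.042 and mir-125a -0.19. PRPR against CTCT gave mir-99b -0.021 and mir-125a -0.25, and the difference of effects mir-10a -0.084 and mir-125a -0.26. DESeq2 itself gave shares of mir-99a 0.038 for CTPR against CTCT, mir-125b-2 -0.00068 for PRPR against CTCT and mir-100 0.00028 for the difference of effects. With miRNA reads outside the members as denominator, mir-125b-2 was at -0.00096 for PRPR against CTCT.

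Littermates share a dam. With litter as a replicate block 0 members were called, mir-10a was at -0.030 in RPM for CTPR against CTCT, mir-125b-1 at -0.0013 in share for the difference of effects and mir-125b-2 at 0.018 in share for PRPR against PRCT. The block lowered the all-row calls for CTPR against CTCT from 5 to 0, for PRPR against PRCT from 1 to 0 and for the difference of effects from 61 to 0, and changed no call of a member.

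With mice 47I1 and 47I2 exchanged, RPM for PRPR against CTCT gave mir-99b -0.018 and mir-125a -0.0050, and the share of mir-125b-2 was -0.062 for CTPR and -0.025 for PRPR against CTCT. Without litter 47I, RPM for PRCT against CTCT gave mir-10b 0.062, mir-99a 0.13, mir-100 0.069 and mir-125a 0.11, PRPR against CTCT gave mir-99a 0.089, and the share of mir-125b-2 was -0.014 for CTPR against CTCT. Without mice 07C3, 35F2, 31A3 and 08G5, RPM gave mir-99b -0.11 for PRCT and -0.067 for PRPR against CTCT, and mir-99a 0.0077, mir-99b 0.039 and mir-125b-1 0.014 for PRPR against PRCT. Shares gave mir-99a -0.015 for PRCT against CTCT and -0.013 for the difference of effects, mir-99b 0.048 for PRPR against PRCT and mir-125a 0.038 for PRPR against CTCT.

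Some settings were chosen after seeing the data. Without mouse 02A6, RPM gave mir-99b -0.043 for PRCT and -0.082 for PRPR against CTCT, and shares gave mir-10b 0.042 and mir-100 0.052 for PRCT against CTCT. Among mice with at least 50000 miRNA reads, shares gave mir-10b 0.0061 and mir-125a 0.14 for PRCT against CTCT, mir-125a 0.24 for PRPR against CTCT and mir-125b-1 -0.11 for the difference of effects. The newer edgeR method, the covariate and summing the mir-125b copies were the others.

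Calls over all rows in RPM varied far more, from 0 to 249 for CTPR against CTCT (edgeR as reported 5, DESeq2 78, newer method 161), 0 to 131 for PRCT against CTCT (0, 80, 39), 0 to 150 for PRPR against CTCT (1, 67, 45), 0 to 130 for PRPR against PRCT (1, 76, 26) and 0 to 2106 for the difference of effects (61, 102, 146). In shares they were 0 apart from at most 3 for the difference of effects. The study's listed genome-matching reads equalled those in the files and gave the same levels. Precision is limited by the spread between mice for mir-10a, mir-10b and mir-99a, and also by low counts, down to 8 reads, for mir-125a.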
